A study of Mus musculus with 9 samples.

Results

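The 8 transcripts described here encode cytokines, or subunits of cytokines, of the IL-6, IL-12 and IL-10 families: Il6, Lif and Osm of the IL-6 family, Il27, Ebi3, Il23a and Il12b of the IL-12 family, and Il10. They were chosen by name, with earlier results of these data known. Each symbol matched 1 row among the 50600 genes of the deposited tables, and 6 of the 8 had enough counts for a test. The cells were RAW-Blue, a mouse macrophage line that carries a secreted reporter for NF-kappaB and AP-1 activity. RNA came from untreated cells (None, 3 samples) and from cells given lipopolysaccharide (LPS), a component of the Gram-negative outer membrane and the ligand of the receptor TLR4, at 1 µg/ml for 24 hours (LPS, 3 samples). Both groups were grown in the same medium, which contained Zeocin, Normocin, penicillin and streptomycin. Another group of 3 samples, pre-treated for 16 hours with exosome-like nanovesicles of the plant Peucedanum japonicum before the same LPS stimulus, was not analysed here. All samples come from 1 transformed cell line and 1 time point, and no label says that the 3 samples of a group were separate cultures, so the spread that the p-values rest on may be technical.

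Cytokines of the IL-6 family signal through the shared receptor chain gp130, encoded by Il6st. This chain pairs with others depending on the ligand and activates JAK kinases and the transcription factor STAT3. IL-12 family cytokines are pairs of unlike subunits: Il12b encodes the chain shared by IL-12 and IL-23, where it joins the products of Il12a and Il23a, and Ebi3 encodes the partner of the Il27 product in IL-27. IL-10 acts through the chains encoded by Il10ra and Il10rb, also by way of STAT3, and restrains inflammatory gene expression in macrophages. Macrophages are a main source of IL-6, IL-10, IL-12, IL-23, IL-27 and oncostatin M in the response to bacteria.

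Libraries held 17028440 to 17665201 counts in None and 14650825 to 15659395 in LPS, so every LPS library was shallower than every None library. The factors that scaled the libraries (TMM) ran from 1.08 to 1.10 in None and from 0.899 to 0.941 in LPS. Depth and scaling therefore go together with treatment. The first principal component, with 90.9% of the variance, told LPS from None. The second, with 3.23%, set LPS replicate 1, at 23.0, apart from LPS replicates 2 and 3, at -7.49 and -16.0. Of 10 macrophage markers 9 passed the filter on low counts, and their summed level ran from 11922 to 13393 CPM (counts scaled to library size) in None and from 22148 to 23745 CPM in LPS. Most of that sum was Lyz2, the lysozyme gene, at 8337 CPM on average in None and 16610.1 CPM in LPS, whereas Csf1r, the receptor gene for the growth factor M-CSF, went from 1787 to 713.0 CPM. Of the 9 tested markers 5 rose, 1 fell and 3 were not called. Of the 7 T and NK cell markers 6 were at 0 in every library, and the summed level of that list reached at most 0.155 CPM. B cell, dendritic cell, fibroblast, endothelial and epithelial lists each summed to at most 2.63 CPM in any library. The neutrophil list rose from at most 0.271 CPM in None to between 14.1 and 17.4 CPM in LPS, nearly all of it S100a8, while its defining markers Ly6g, Mpo and Retnlg were at 0. The part of these markers in the results was not tested. In bulk RNA, more cells that express a gene and more RNA of it per cell cannot be told apart.

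In LPS-stimulated cells Ebi3, Il27, Lif and Osm formed the upper tier of the 8, Il23a and Il6 a lower one, and Il10 and Il12b were near absent. All 6 tested transcripts rose, from 2.93-fold for Ebi3 to 1308-fold for Lif, and each had all its LPS libraries above all its None libraries. Over the 11916 genes tested with edgeR's quasi-likelihood test, 69.1% were called changed, 34.0% higher and 35.1% lower. The groups did not overlap for 73.6% of genes, and for 35.7% LPS lay above None. A call therefore says little by itself. Il27, which passed the filter in every None library, rose by more than 4 on the log2 scale, a size reached by 1.70% of the genes tested. Il6, Lif and Il23a passed the filter on low counts through their LPS libraries, since none or 1 of their None libraries reached it, and therefore had to differ. Their calls and the sizes of their rises are given as a description for that reason.

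**Figure D1:**
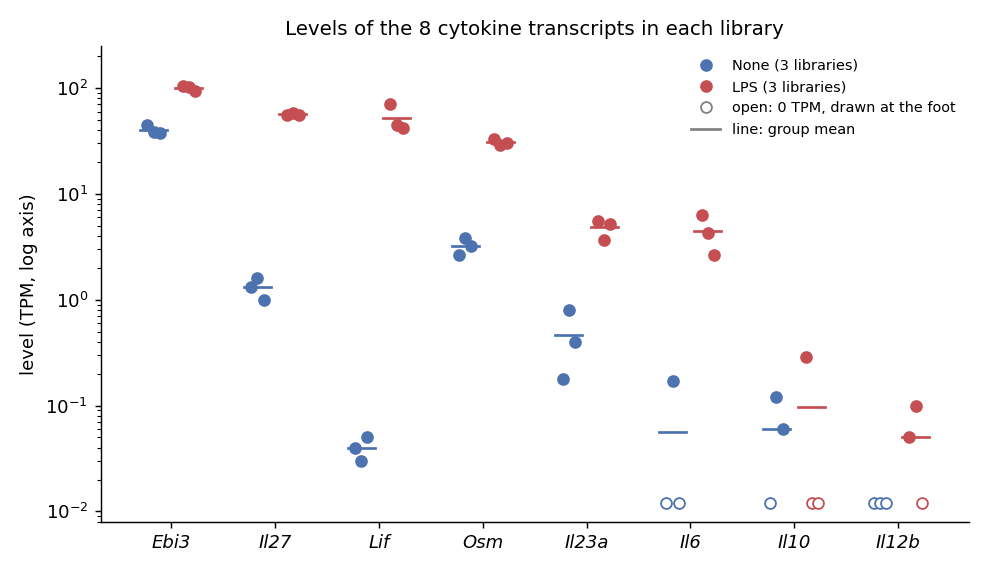
Level of each cytokine transcript in TPM (a measure scaled for transcript length, log axis) in the 3 None and 3 LPS libraries, with a line at the group mean and open circles at the foot for 0 TPM. Ebi3 was the highest in both groups, Lif went from 0.04 to 52.4 TPM on average, and Il10 and Il12b stayed at or below 0.29 TPM.

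Lif encodes leukemia inhibitory factor, an IL-6 family ligand. It lies on chromosome 11 at 4257557 to 4272514 (GRCm38, plus strand) and is annotated with 4 exons. Its level was 0.04, 0.03 and 0.05 TPM in the None libraries, from 2, 2 and 3 counts, and 71.2, 44.6 and 41.5 TPM in the LPS libraries, from 3190, 1983 and 1938 counts. LPS replicate 1 was the highest and every LPS library lay far above every None library. The log2 fold change was 10.35 (SE 0.32, adjusted p = 6.12e-11 in edgeR). Its size rests on 7 None counts in all, and the ratio of summed counts was 1391 with an exact 95% counting interval from 674.8 to 3461. Lif was the lowest of the 7 transcripts detected in None by mean TPM, although its range overlapped that of Il6. In LPS it came after Ebi3 and Il27, with a range that overlapped that of Il27.

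Osm encodes oncostatin M and is the neighbour of Lif, on chromosome 11 at 4236420 to 4241026 (plus strand), with 16.5 kb between the 2 genes. Unlike Lif it was already present in untreated cells, at 2.65, 3.84 and 3.19 TPM in the None libraries. In the LPS libraries it stood at 33.1, 28.8 and 30.5 TPM, a group that varied little and did not overlap None. The log2 fold change was 3.54 (SE 0.13, adjusted p = 2.20e-10 in edgeR), or 11.6-fold. The ratio of Lif to Osm in TPM was between 0.00781 and 0.0157 in the None libraries and between 1.36 and 2.15 in the LPS libraries. Thus the order of the pair turned over. An exact two-sided permutation test of the log2 ratio gave p = 0.10, the smallest that 3 against 3 samples allow. Since Lif passed the filter on low counts through its LPS libraries alone, the ratio is a description and the p-value no support.

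The other tested genes nearest to this pair moved far less. Castor1, 14.4 kb before Osm, which encodes an arginine sensor, had a log2 fold change of 0.69, Tbc1d10a had 0.39, Mtmr3 0.21 and Ascc2 0.38, and each of these was called higher. Around all 8 cytokine genes, 28 such neighbours were counted, the nearest 2 tested protein-coding genes on each side, of which 13 were called higher, 12 lower and 3 not called. Calls thus went in both directions around these genes, beside 34.0% higher and 35.1% lower over all genes tested. The largest rise among them was that of Nupr1, a stress-induced nuclear protein gene near Il27, with a log2 fold change of 1.90, and Cln3, on its other side, had 1.05.

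Il6 encodes interleukin-6, the founding ligand of its family, and lies on chromosome 5 at 30013114 to 30019975 (plus strand, 5 exons). None replicate 2 held a single count and the other None libraries held 0. The LPS libraries held 78, 53 and 28 counts, or 6.38, 4.3 and 2.64 TPM, the widest relative spread among the 6 tested transcripts. The groups did not overlap, and the ratio of summed counts was 217.7 with an exact 95% counting interval from 38.5 to 8653. The log2 fold change of 7.25 (SE 0.70, adjusted p = 1.57e-06 in edgeR) became 8.92 without None replicate 2, where None has 0 counts, so that the size rests on the prior count edgeR adds. Within the LPS libraries the level of Lif was between 10.4 and 15.7 times that of Il6 in TPM.

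**Figure D2:**
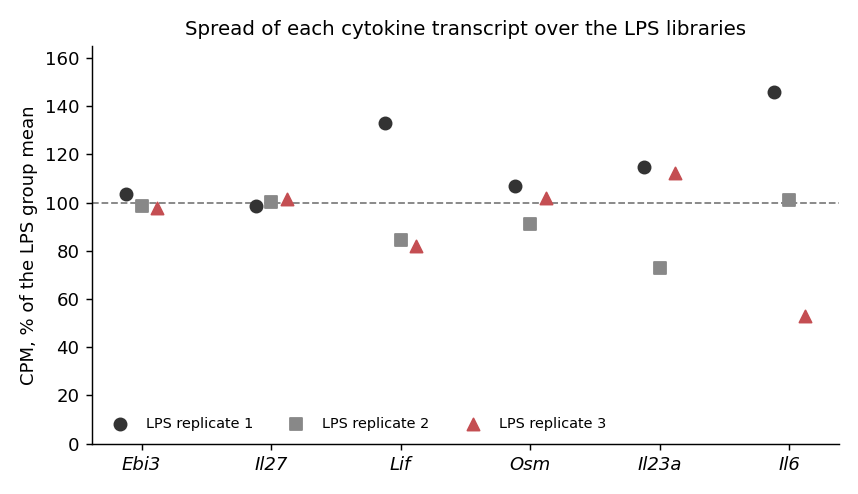
CPM of the 6 tested cytokine transcripts in each LPS library, as a percent of the LPS group mean. The Il27 and Ebi3 libraries lie between 98.0% and 103.4% of their means, whereas Il6 runs from 53.1% to 145.7% and Lif from 82.2% to 133.2%.

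The 3 LPS libraries thus did not vary alike for all 6 transcripts, as the plot of LPS libraries against their mean shows. The coefficient of variation over the LPS libraries was 1.56% for Il27, 3.00% for Ebi3 and 7.97% for Osm, against 23.5% for Il23a, 28.8% for Lif and 46.3% for Il6. Sampling noise, which is larger at low counts, was not taken out of these values. LPS libraries held 28 to 78 counts of Il6 and 51 to 82 of Il23a, but 564 to 576 of Il27 and 1938 to 3190 of Lif. LPS replicate 1 was the highest of the 3 for Il6, Lif, Osm, Ebi3 and Il23a in CPM and the lowest for Il27, whose libraries stand in another order in TPM. LPS replicate 3 was the lowest for Il6, at 28 counts, but close to LPS replicate 1 for Il23a, at 79 against 82 counts. Without LPS replicate 1 the log2 fold change of Lif was 10.09.

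Il27 encodes the helix-bundle subunit of interleukin-27, a cytokine that both activates and restrains T cells. It lies on chromosome 7 at 126589010 to 126594941 (minus strand, 5 exons). Its None libraries held 1.33, 1.61 and 0.99 TPM, from 15, 19 and 12 counts. The LPS libraries held 56.0, 58.5 and 55.6 TPM, the tightest LPS group of the 6. The log2 fold change was 5.65 (SE 0.14, adjusted p = 1.10e-11 in edgeR), or 50.4-fold. Il27 shares 103 bases with the end of Apobr, a lipoprotein receptor gene on the other strand with 2305 to 2646 counts in None and 2831 to 2989 in LPS. No source used here says whether reads were counted by strand, so reads from the shared bases cannot be told apart.

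Ebi3, the receptor-like partner subunit of IL-27, lies on chromosome 17 at 55952640 to 55957022 (plus strand, 5 exons). It was the highest of the 8 in untreated cells, at 44.4, 38.4 and 37.3 TPM, and again in LPS, at 104.0, 101.8 and 94.7 TPM. The groups did not overlap and the change was the smallest of the 6, with a log2 fold change of 1.55 (SE 0.08, adjusted p = 5.70e-09 in edgeR). An antisense gene, Gm16712, overlaps Ebi3 over 2252 bases and held 6 to 10 counts in None and 40 to 58 in LPS, against 542 to 601 and 1175 to 1260 for Ebi3.

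The 2 partners of IL-27 came closer in level. The ratio of Ebi3 to Il27 in TPM was 33.4, 23.9 and 37.7 in the None libraries and 1.86, 1.74 and 1.71 in the LPS libraries. Untreated cells thus held a large excess of the Ebi3 transcript, and LPS-stimulated cells held the 2 transcripts at levels within 1.86 times of each other. The mean ratio was 31.6 ± 7.07 in None and 1.77 ± 0.0797 in LPS (SD, n = 3), and an exact two-sided permutation test of the log2 ratio gave p = 0.10, the smallest this design allows.

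**Figure D3:**
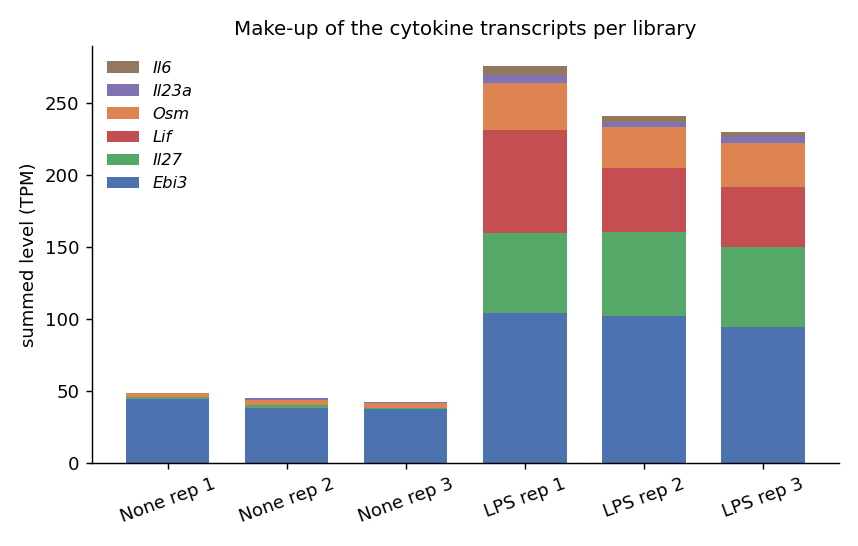
Stacked TPM of 6 cytokine transcripts in each of the 6 libraries (Il10 and Il12b are too low to draw). The summed level of the 8 was 42.0 to 48.6 TPM in None, mostly Ebi3, and 230.2 to 276.6 TPM in LPS, where Ebi3, Il27, Lif and Osm each hold a visible part.

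Il23a encodes the subunit particular to interleukin-23 and lies on chromosome 10 at 128296139 to 128298084 (minus strand, 4 exons). Its None libraries held 3, 14 and 7 counts, or 0.18, 0.80 and 0.40 TPM, and its LPS libraries 82, 51 and 79 counts, or 5.56, 3.65 and 5.25 TPM. All LPS libraries were above all None libraries, with None replicate 2 the highest of its group and LPS replicate 2 the lowest of its own. The log2 fold change was 3.57 (SE 0.36, adjusted p = 2.09e-06 in edgeR), and it was 4.22 without None replicate 2.

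The partner that Il23a needs in IL-23 was nearly undetected. Il12b, on chromosome 11 at 44400063 to 44414033 (plus strand, 8 exons), had 0 counts in the 3 None libraries, which allows up to 0.0525 CPM over the group, and 1, 2 and 0 counts in the LPS libraries. Both groups lie at or under the level that 3 counts can resolve, so no fold is given. Il12a, the other partner of Il12b, had 0 counts in all 6 libraries, which allows up to 0.0525 CPM in None and 0.0719 CPM in LPS. These limits cover counting error only.

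Il10, on chromosome 1 at 131019845 to 131024974 (plus strand, 5 exons), was near absent in both groups. The None libraries held 0, 2 and 1 counts, and the LPS libraries 4, 0 and 0. All 4 counts of the LPS group were in LPS replicate 1, and the groups overlapped. The ratio of LPS to None counts was 1.83 with an exact 95% counting interval from 0.309 to 12.5, so no difference was detectable at this depth. With no filter on low counts, edgeR's quasi-likelihood test gave Il10 an adjusted p of 0.633 and Il12b an adjusted p of 0.149.

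Levels per transcript length gave an order of the 8. In None, Ebi3 (40.0 ± 3.81 TPM, SD, n = 3) stood above Osm (3.23 ± 0.596), Il27 (1.31 ± 0.310) and Il23a (0.460 ± 0.314), and the library ranges of these 4 did not overlap. Il10, Il6 and Lif followed at 0.06, 0.0567 and 0.04 TPM, with overlapping ranges, and Il12b was at 0. In LPS, Ebi3 (100.2 ± 4.85 TPM) led, Il27 (56.7 ± 1.60) and Lif (52.4 ± 16.3) overlapped, and Osm (30.8 ± 2.16) lay below them. Il23a (4.82 ± 1.03) and Il6 (4.44 ± 1.87) overlapped each other and lay below Osm. Il10 (0.0967 ± 0.167) and Il12b (0.05 ± 0.05) also overlapped. The share of Ebi3 in the summed TPM of the 8 went from 88.5% ± 2.99 to 40.3% ± 2.37, while Il27 went from 2.89% ± 0.625 to 22.9% ± 2.26 and Lif from 0.0894% ± 0.0269 to 20.7% ± 4.34 (SD, n = 3). The shares are of transcripts, and say nothing of secreted protein.

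On the scale of log2(TPM + 1), which understates the change of low genes, the differences tested with limma were smaller: 5.64 for Lif, 4.65 for Il27, 2.92 for Osm, 2.31 for Il6 and 2.0 for Il23a. Over the genes tested both ways, log2 fold changes on this scale moved by a median of -0.20 against the main fit. The parts of scaling and of low level in the smaller values were not separated. All 6 cytokine transcripts were still called there, although Il6, Lif and Il23a had to differ, as with the counts.

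For each tested transcript the genes with the closest pattern were taken by the distance between log2(TPM + 1) values over the 6 libraries. Closest to Il6 were Slc22a4, an organic cation carrier gene, at a distance of 0.499, and Csf2, which encodes the growth factor GM-CSF, at 0.563. Lif was nearest to the interferon-inducible gene Ifi202b (0.697) and the gelatinase gene Mmp9 (0.712). Osm was nearest to Ifi203 (0.464) and the exonuclease gene Isg20 (0.649), both inducible by interferon. The nearest to Il27 were Lgals9, encoding galectin-9 (0.437), and the phosphatase gene Dusp5 (0.484). Ebi3 had the closest match, in the ubiquitin ligase gene Trim25 (0.272), and Il23a had Hmcn2 (0.577) and Rnf183 (0.624). With 6 libraries in 2 groups, this measure mostly reads the 2 group levels.

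Promoter sequences show how unlike the starts of these genes are. RefSeq's table (GRCm38.p6) held 4 of the 8 genes, Il6, Lif, Ebi3 and Il12b. The 250 bases before the start site are given 5′ to 3′ in lower case, with matches to the motifs searched in capitals.
Il6, chr5:30012864-30013113, plus strand: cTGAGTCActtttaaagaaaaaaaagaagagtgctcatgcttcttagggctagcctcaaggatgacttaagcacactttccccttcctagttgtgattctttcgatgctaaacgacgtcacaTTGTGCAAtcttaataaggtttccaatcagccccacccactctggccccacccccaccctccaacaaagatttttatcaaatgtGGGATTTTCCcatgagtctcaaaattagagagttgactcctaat
Lif, chr11:4257318-4257567, plus strand: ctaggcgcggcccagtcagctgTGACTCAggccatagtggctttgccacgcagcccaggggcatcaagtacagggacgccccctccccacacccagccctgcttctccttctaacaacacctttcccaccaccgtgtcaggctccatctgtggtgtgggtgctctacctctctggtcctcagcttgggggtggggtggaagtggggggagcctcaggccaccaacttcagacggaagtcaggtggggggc
Ebi3, chr17:55952373-55952622, plus strand: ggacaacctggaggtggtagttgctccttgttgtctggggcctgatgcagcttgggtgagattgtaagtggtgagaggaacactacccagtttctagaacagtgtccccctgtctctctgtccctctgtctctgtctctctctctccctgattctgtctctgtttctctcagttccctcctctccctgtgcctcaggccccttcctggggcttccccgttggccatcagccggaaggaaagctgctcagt
Il12b, chr11:44399813-44400062, plus strand: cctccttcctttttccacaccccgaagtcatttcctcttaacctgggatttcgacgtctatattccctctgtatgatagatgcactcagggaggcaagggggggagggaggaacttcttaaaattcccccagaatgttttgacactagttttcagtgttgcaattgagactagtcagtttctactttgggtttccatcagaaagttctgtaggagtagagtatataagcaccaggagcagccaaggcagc

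The motifs searched, on both strands, were GGG, any 2 bases and TTTCC for NF-kappaB, TGANTCA for AP-1, TTGCNNAA for C/EBP, and GAAA, any 2 bases and GAAA for interferon-responsive elements. No matches overlapped. The Il6 promoter held the first 3, with the NF-kappaB match 44 to 35 bases before the start, the C/EBP match, which lies on the minus strand, 128 to 121 bases before it, and the AP-1 match 249 to 243 bases before it. The AP-1 motif reads the same on both strands. The Lif promoter held the AP-1 match alone, 228 to 222 bases before the start, and the windows of Ebi3 and Il12b held none of these letters. Of the 32851 promoter windows in the table, 1.41% held the NF-kappaB letters, 6.75% the AP-1 letters, 9.56% the C/EBP letters and 2.98% the interferon-responsive letters. Base composition also differed, with 42.8% G and C in the Il6 window and 63.6% in that of Lif. A match describes these letters and is not evidence of binding. Only exact letters were searched, so a window without a match may still hold sites that depart from them. A link between matches and the response to LPS was not tested.

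Messages of inflammatory cytokines often carry AU-rich elements, repeats of the pentamer AUUUA in the 3′ untranslated region (3′ UTR) that proteins such as tristetraprolin bind to hasten decay. The stretch of up to 30 bases with the most copies is given for 4 members, from GENCODE M21 transcripts (GRCm38) in DNA letters, with the pentamers in capitals, to show the feature that 7 of the 8 carry in at least 5 copies.
Il6, bases 140 to 158 of its 3′ UTR: ttaATTTAttgataATTTA
Il27, bases 179 to 205: gatATTTAtttcttggatATTTATTTA
Il12b, bases 237 to 266: ATTTAagtaATTTAtgtATTTAttaATTTA
Ebi3, bases 204 to 211: gtgATTTA

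The 3′ UTR of Il27 held 5 copies in 285 bases, and 0.242% of the tested genes' 3′ UTRs of like length (within 20%) held at least as many. Il6 held 6 copies in 427 bases, which 0.506% of 3′ UTRs of like length matched or exceeded. For Il23a (6 copies in 657 bases) that share was 1.06%, for Il10 (6 in 706) 1.51%, for Il12b (6 in 774) 1.97% and for Osm (6 in 1017) 3.97%. Lif, with 7 copies in 3180 bases, was ordinary for its length at 35.0%, as was Ebi3, with 1 copy in 245 bases, at 33.2%. The longer motif TTATTTATT gave another order, with 2 copies in Lif, 2 in Il27 and 1 in Il23a. Of 3′ UTRs of like length, 14.1%, 1.94% and 4.58% held it. Il6, Osm, Ebi3, Il12b and Il10 lacked it.

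**Figure D4:**
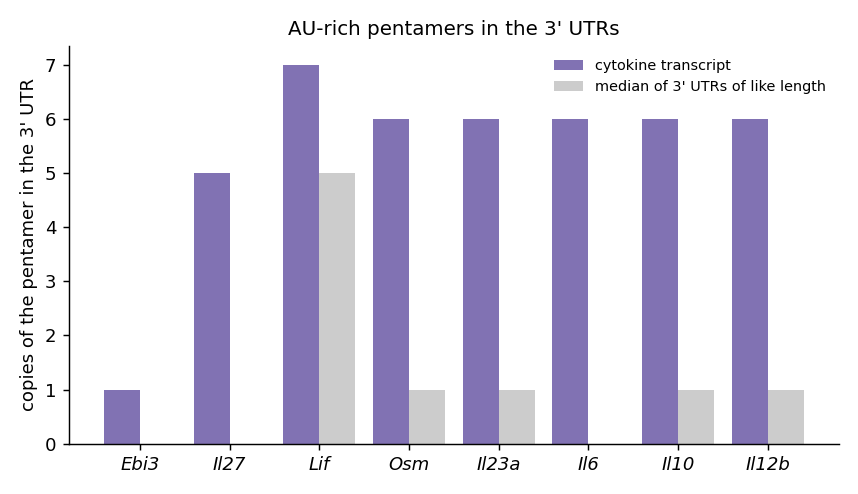
Copies of the AU-rich pentamer in the 3′ UTR of each cytokine transcript (purple) beside the median of tested genes' 3′ UTRs of like length (grey). Il6 and Il27 have 6 and 5 copies where the median is 0, and Ebi3 has 1.

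Of 10 genes whose proteins are known to act on such elements or on the same messages, all tested, 4 rose and 3 fell, near the 34.0% higher and 35.1% lower over all genes tested. Their median log2 fold change was 0.03, against -0.03 over all genes. Zc3h12a, whose ribonuclease cleaves Il6 and other cytokine messages, rose by 3.48 on the log2 scale (SE 0.09), and Zfp36, which encodes tristetraprolin, by 1.44 (SE 0.14). Transcripts of the RNA-binding proteins Arid5a, which stabilises Il6 mRNA, and Elavl1 rose by 0.81 and 0.64. Zfp36l2 fell by 1.07 and Hnrnpd, which encodes AUF1, by 0.88. Scaling by library totals gave 4 higher and 5 lower, so the split of this list depends on the scaling.

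Among receptor chains, the ligand-binding chain of IL-6 itself fell. Of 14 receptor chain genes 7 were tested, of which 2 rose and 3 fell, with a median log2 fold change of -0.27, beside 34.0% higher and 35.1% lower over all genes tested. One of the 2 that rose, Il20rb, passed the filter through its LPS libraries alone. Il6ra, the ligand-binding chain of the IL-6 receptor, fell in every LPS library, from 30.4, 26.3 and 22.3 TPM to 4.0, 4.29 and 3.94 TPM. Its log2 fold change was -2.40 (SE 0.11, adjusted p = 1.16e-09 in edgeR). The shared chain gene Il6st held 17.4, 16.7 and 15.5 TPM in None and 17.9, 14.5 and 13.5 TPM in LPS and was not called, at a log2 fold change of 0.07 that was -0.19 with scaling by library totals. The ratio of Il6st to Il6ra in TPM therefore went from 0.633 ± 0.0618 to 3.76 ± 0.626 (SD, n = 3), with p = 0.10 in an exact two-sided permutation test of the log2 ratio, the smallest possible.

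Several chains of the receptors for LIF, oncostatin M, IL-27, IL-12 and IL-23 were near 0. Lifr had 3 counts over the None libraries and 0 over the LPS libraries, Il27ra had 4 and 0, and Il12rb2, a chain of the IL-12 receptor, had 12 and 1. Osmr and Il23r had 0 counts in all 6 libraries, which allows up to 0.0525 CPM in None and 0.0719 CPM in LPS. Il12rb1, shared by the receptors of IL-12 and IL-23, rose from 2.31 ± 0.212 to 3.23 ± 0.394 TPM (SD, n = 3), with a log2 fold change of 0.80 (adjusted p = 0.000564 in edgeR).

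Both IL-10 receptor chains were well expressed although Il10 was not. Il10rb, which several receptors of this family share, fell from 48.2, 46.2 and 47.3 TPM to 29.4, 28.9 and 23.7 TPM, with a log2 fold change of -0.56 (SE 0.08). Il10ra, the chain particular to IL-10, held 95.6, 78.6 and 76.0 TPM in None and 68.0, 56.6 and 54.0 TPM in LPS. Its log2 fold change of -0.27 was called at an adjusted p of 0.0365 in edgeR, although the groups overlapped in CPM, if not in TPM. The call of Il10ra was lost without None replicate 1 (-0.16), LPS replicate 2 (-0.20) or LPS replicate 3 (-0.21) and with RLE size factors (-0.24). Il20rb, a receptor chain for IL-19, IL-20 and IL-24, rose by 2.06 on the log2 scale to 1.15 ± 0.0473 TPM.

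Among 13 further ligands of the families, 3 were tested and 2 rose, beside 34.0% higher over all genes tested, and both belong to the IL-6 family. Both passed the filter on low counts through their LPS libraries alone and so had to rise. Clcf1, which encodes cardiotrophin-like cytokine factor, went from 0, 1 and 0 counts in None to 80, 48 and 57 in LPS, a ratio of 253.3 with an exact 95% counting interval from 44.9 to 10059. Il11 went from 2, 1 and 0 counts to 38, 36 and 35, a ratio of 49.8 with an interval from 16.6 to 245.0. Ctf1, which encodes cardiotrophin, was not called at a log2 fold change of 0.28. In all, 7 ligands had 0 counts in all 6 libraries, namely Il12a, Il31, Il20, Il22, Il24, Ifnl2 and Ifnl3. Il19 had 2 counts in None and 1 in LPS.

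The kinases and transcription factors that relay these cytokines were mostly higher. Of 10 relay genes 8 were tested, 6 rose and none fell, against 34.0% higher over all genes tested, and scaling by library totals gave 5 higher and 1 lower. As this list was chosen with earlier results of these data known, the count is a description. Jak2 rose by 1.42 on the log2 scale, the adaptor gene Gab2 by 1.23 and Stat3 by 0.84. Stat4, the factor best known for relaying IL-12 in T cells, had 0 counts.

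Of 8 feedback inhibitors of the JAK and STAT relay, 3 rose and 2 fell, or 3 and 4 when libraries were scaled by their totals, beside 34.0% higher and 35.1% lower over all genes tested. Cish, an inhibitor induced by several cytokines, went from 2, 0 and 1 counts in None to 778, 511 and 627 in LPS, a ratio of 874.5 with an exact 95% counting interval from 298.8 to 4244. Cish and Socs1 passed the filter on low counts through their LPS libraries. Socs3, which blocks signalling from gp130, was already present at 50.7 ± 2.93 TPM in None and reached 472.2 ± 75.3 TPM in LPS (SD, n = 3), with a log2 fold change of 3.44. Socs1 rose by 2.42 from 0.603 to 2.79 TPM on average. Pias1, an inhibitor of STAT signalling, fell by 0.63.

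**Figure D5:**
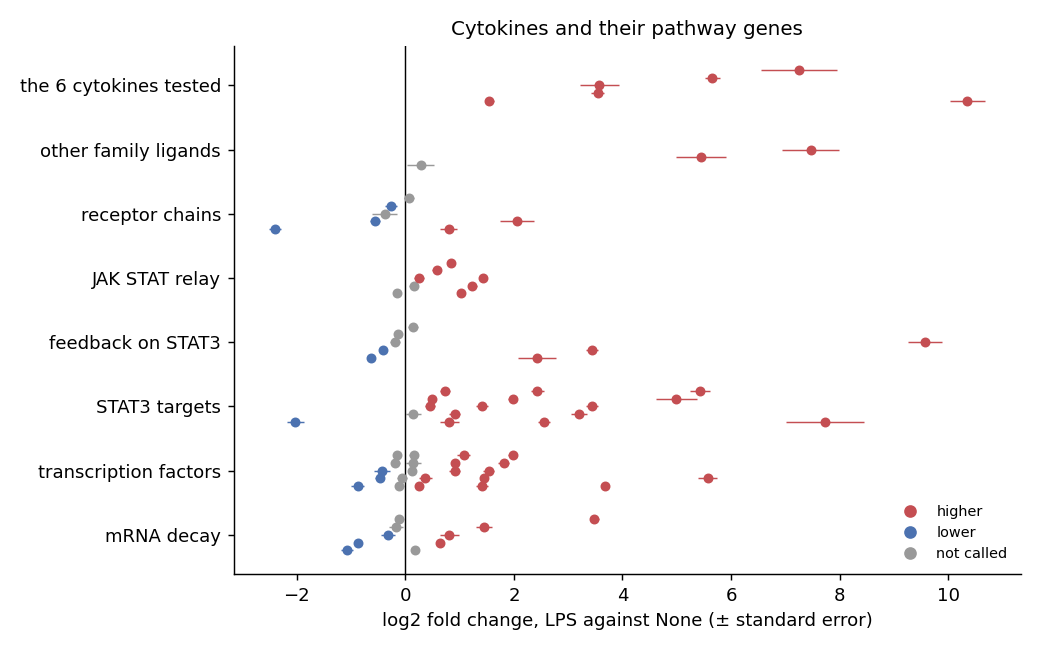
Log2 fold change, LPS against None, with its standard error, for the tested genes of each list, coloured by edgeR's call at an adjusted p of 0.05. The 6 cytokines tested lie from 1.55 to 10.35, while receptor chains lie on both sides of 0, from -2.40 to 2.06, and Timp1, with 0 counts in None, is drawn at its fitted value among the STAT3 targets.

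Genes known as targets of STAT3 were tested in full, 16 of 16, and 14 rose while 1 fell, with a median log2 fold change of 1.69, beside 34.0% higher and 35.1% lower over all genes tested. Il1rn and Timp1 passed the filter on low counts through LPS alone. Many of them also answer to other factors that LPS activates, and the part of these cytokines in the count was not tested. The list was chosen with earlier results of these data known, so the count beside that share is a description. Myc rose by 5.43 and Il1rn, the receptor antagonist gene that IL-10 induces, by 4.99. Bcl3, an atypical inhibitor of NF-kappaB, rose by 3.21. Timp1, a protease inhibitor gene, went from 0 counts to 67 in LPS, at least 30.6-fold higher if None is set at 3 counts in all. Fos fell by 2.03, and Cebpd was not called at 0.15.

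Of 24 transcription factor genes known to act on the 8 cytokine genes, 22 were tested, 12 rose and 3 fell, with a median log2 fold change of 0.31, beside 34.0% higher and 35.1% lower over all genes tested. Scaling by library totals gave 10 higher and 7 lower, and TPM values gave 11 and 6. These counts are a description too, since earlier results of these data were known when the list was chosen. Nfkbiz, whose product is needed for Il6 and Il12b induction, rose by 3.68 (SE 0.08), Fosl1 by 5.57, Cebpb by 1.98 and Nfkb2 by 1.81. Irf1, an activator of Il12a and Il27 transcription, fell by 0.88. Maf, an activator of Il10 transcription in macrophages, had 0 counts in all 6 libraries. The lists overlap in part. Nfil3, Junb, Cebpb and Cebpd were also counted among the STAT3 targets, as were the feedback gene Socs3 and the decay gene Arid5a.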

How the data were processed

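RNA of RAW-Blue cells was sequenced as paired reads, filtered with SOAPnuke per the labels' protocols. Listed in the submitters' processing notes are STAR 2.7.10a, RSEM 1.3.1 and the build GRCm38. The authors deposited expected counts, which divide shared reads between genes, and TPM, which the authors scaled for transcript length. The 6 library columns that matched None and LPS labels were used. Another 12 columns in each table matched no label and were not used.

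Expected counts were rounded. Genes passed filterByExpr (edgeR 4.0.16, count minimum 10, total at least 15), libraries were scaled by TMM, and glmQLFit and glmQLFTest gave two-sided tests with Benjamini-Hochberg adjustment over 11916 genes (threshold 0.05). Standard errors come from the F statistic. CPM use TMM-scaled sizes. The steps were run on simulated data in which few genes changed, unlike these data, so that run does not test the scaling. Replicates of a group differed by more than sampling noise (chi-square over its degrees of freedom, 3.32 to 17.5). Alternatives were RLE factors, library totals, DESeq2 1.42.0, other filters, limma 3.58.1 on TPM, a replicate block and leaving out each library.

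The members and lists were chosen with earlier results of these data known. All 8 members, 9 preset receptor and ligand genes and in each list up to 4 called genes, those most changed with a mean of at least 1 CPM, are named; other names were chosen after their values were seen. 3′ UTRs were those of APPRIS principal, then longest, GENCODE M21 transcripts. Gene positions and exons are from GENCODE M21, counted from 1. Values of some genes that these rules select are not reported here.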

Additional observations from a re-analysis of the deposited data

How the results depend on the processing

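The 6 tested cytokine transcripts were called higher under every one of the 15 alternatives run, with adjusted p-values of at most 0.000964 (Il6, limma on log2(TPM + 1)). Il6, Lif and Il23a passed the filter on low counts through their LPS libraries and had to differ. Their calls under the alternatives are therefore no further support. Leaving out 1 library at a time gave 6 members called each time, 7507 to 8103 genes called (3722 to 4004 higher, 3785 to 4099 lower), and 47 to 52 pathway genes called (37 to 42 higher, 9 to 13 lower). Scaling by library totals alone, which moved log2 fold changes by a median of -0.26, gave 2679 genes higher against 4052 with TMM, and 22 pathway genes lower against 12. The share of higher genes among those called went from 49.2% to 30.6% there and to 35.5% on TPM values. Taking CPM in place of TPM changed the ratio of LPS to None from 9.54 to 11.7 for Osm and from 2.50 to 2.93 for Ebi3. The log2 fold change of Il6st, not called in any of these, changed sign with library totals (-0.19), on log2(TPM + 1) with and without a filter (-0.11 in both), on log2(TPM + 0.1) (-0.12) and without LPS replicate 1 (-0.044), with a range from -0.044 to 0.139 over the libraries left out singly. The cause was not tested. The call of Il12rb1 was lost on unfiltered TPM (0.35). Deviations of same-numbered libraries correlated at 0.08, -0.02 and 0.01, and those of differently numbered libraries at -0.06 to 0.07. With 3 libraries per group this cannot decide whether the replicate numbers pair the samples. With the replicate block 8362 genes and 52 pathway genes were called, against 8232 and 50 without it, and all 6 members. Il10 and Il12b, with at most 4 counts in a library, are limited by depth.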
